A study of Homo sapiens with 6 samples.

Results

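The genes examined here are the 4 ID genes (ID1, ID2, ID3 and ID4), the pseudoreceptor gene BAMBI, the SMAD genes SMAD3, SMAD6 and SMAD7, and the ligand genes BMP2 and BMP4. They were chosen by gene name, as every non-control probe that the array files assign to one of these 10 genes, which gave 12 probes on 21 spots of each array among the 41000 probes of the array and its 29123 gene names. ID2 and SMAD3 were each read by 2 probes and the other genes by 1. The data are 6 Agilent Whole Human Genome arrays, each of which compared RNA of a modified clone with RNA of its control (Ctrl) in the dyes Cy3 and Cy5. The study asked which genes change when Hic-5, the product of TGFB1I1, is suppressed in SKOV3 cells or overexpressed in A2780s cells. Both are established human ovarian cancer lines. The SKOV3 clones sh-S1 and sh-S2 were made with shRNAs against Hic-5 delivered by lentivirus in the pLKO.1-puro vector and selected with puromycin, and their Ctrl carried the same vector with a scramble sequence. The A2780s clone pCMV-Hic-5 carried a tagged Hic-5 cDNA in a pCMV6 vector under neomycin selection, and its Ctrl the empty vector. Each modified RNA came from 1 clone, and a clone can differ from its Ctrl in more than the construct. Each clone was hybridised on 2 arrays with the dyes exchanged. These arrays share their RNAs and count as 1 replicate, so SKOV3 has 2 replicates set against the same Ctrl RNA, and A2780s has 1 replicate and no test.

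Transforming growth factor-beta (TGF-beta) and the bone morphogenetic proteins (BMPs) are secreted ligands that bind paired receptor kinases, which phosphorylate SMAD proteins that then enter the nucleus and change transcription. The ID genes are classic targets of BMP signalling. Their proteins lack a DNA-binding region and sequester E proteins and other helix-loop-helix transcription factors. BAMBI, SMAD6 and SMAD7 are induced by these pathways and act back on them, BAMBI as a receptor without a kinase domain and SMAD6 and SMAD7 as inhibitory SMADs.

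What an array reads of a gene is a 60-base oligonucleotide. A probe of ID2 and that of ID3 are shown because these genes had the highest ratios in SKOV3, and they carry positions of the genome build hg19. The ID2 probe A_23_P143143 spans chr2:8822642-8823030 on the plus strand, a stretch of 389 bases for a probe of 60, so the probe is not continuous in the genome. One of its reading frames is open up to a stop codon, in capitals. The ID3 probe A_23_P137381 lies at chr1:23885666-23885725 on the minus strand.
ID2 probe: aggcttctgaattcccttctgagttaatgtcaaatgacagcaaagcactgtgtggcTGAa
ID3 probe: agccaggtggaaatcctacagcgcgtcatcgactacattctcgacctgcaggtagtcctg
The second ID2 probe, A_32_P69368, lies downstream at chr2:8824282-8824341. No annotation of hg19 was used here, so the exon or coding status of the probes was not looked up. The probe of ID1 lies at chr20:30194158-30194217, that of ID4 at chr6:19839510-19839569 and that of BAMBI at chr10:28971551-28971610, all on the plus strand.

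The promoters of the 4 genes that were called in SKOV3 are shown because these genes moved on every SKOV3 array. Each is the 250 bases before the transcript start in RefSeq, on build GRCh38.p14: chr2:8681806-8682055 (plus strand) for ID2, chr1:23559502-23559751 (minus strand) for ID3, chr6:19837120-19837369 (plus strand) for ID4 and chr10:28677271-28677520 (plus strand) for BAMBI. Capitals mark GGCGCC, a GC-rich motif of BMP response elements that reads the same on both strands, and CAGAC or its complement GTCTG, the SMAD-binding motif. The motifs overlapped at 0 bases in these windows.
ID2 promoter: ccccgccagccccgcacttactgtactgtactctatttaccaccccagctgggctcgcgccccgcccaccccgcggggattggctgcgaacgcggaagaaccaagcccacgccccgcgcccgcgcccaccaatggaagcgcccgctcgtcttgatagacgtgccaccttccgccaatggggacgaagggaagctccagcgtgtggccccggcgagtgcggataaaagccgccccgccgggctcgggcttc
ID3 promoter: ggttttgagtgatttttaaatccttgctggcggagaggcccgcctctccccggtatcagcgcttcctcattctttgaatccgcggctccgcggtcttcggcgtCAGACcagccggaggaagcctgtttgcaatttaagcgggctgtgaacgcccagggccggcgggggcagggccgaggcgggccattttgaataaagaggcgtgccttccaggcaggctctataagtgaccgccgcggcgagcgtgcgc
ID4 promoter: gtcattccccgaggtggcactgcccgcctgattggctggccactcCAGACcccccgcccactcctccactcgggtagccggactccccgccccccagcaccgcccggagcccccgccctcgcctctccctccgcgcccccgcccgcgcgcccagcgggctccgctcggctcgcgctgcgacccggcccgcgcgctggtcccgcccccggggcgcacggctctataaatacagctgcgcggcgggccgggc
BAMBI promoter: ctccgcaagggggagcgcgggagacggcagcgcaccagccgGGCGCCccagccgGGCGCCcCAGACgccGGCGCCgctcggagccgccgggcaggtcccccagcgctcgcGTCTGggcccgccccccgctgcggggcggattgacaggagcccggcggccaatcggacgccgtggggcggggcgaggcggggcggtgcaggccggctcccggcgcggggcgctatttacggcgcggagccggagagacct
The BAMBI promoter held GGCGCC 3 times, and 0.527% of the 35116 promoters in the table held it at least 3 times in a window of this length. Of the 9 members with a promoter in the table, the others held it 0 times, and 16.4% of all promoters held it at least once. The motif is made of G and C alone. The BAMBI window was 81.2% G and C, against 48.4 to 78.8% in the windows of the other members. The shares over all promoters were not matched for this content. The CAGAC motif, on either strand, was found 2 times in the BAMBI promoter, 1 time each in those of ID3 and ID4, and 0 times in that of ID2. Among the members that were not called, SMAD3 held it 3 times, BMP4 1 time and ID1, SMAD6 and SMAD7 0 times, while 38% of all promoters held it. These matches are a description of the letters and say nothing about binding. Each gene has 1 window here, and other transcript starts of the same gene were not looked at. A count therefore need not describe the main promoter of a gene.

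Array facts that touch the values below concern the dyes, the targeted gene and the cells. On the SKOV3 arrays, the median net signal of all probe spots (mean minus local background) was 373 to 530.5 in Cy3 and 9.52 to 25.5 in Cy5, and on the A2780s arrays it was 325 to 369 in Cy3 and 441 to 568 in Cy5. The log2 ratios of a dye-swapped pair, both turned to clone over Ctrl, correlated across probes at r = 0.605, 0.606 and 0.490 for sh-S1, sh-S2 and pCMV-Hic-5. TGFB1I1 itself had log2 ratios of -0.16 and 0.12 on the sh-S1 arrays and -0.12 and 0.28 on the sh-S2 arrays, a mean of 0.03 ± 0.07 (SD, n = 2), and limma's adjusted p was 0.855. In A2780s its ratios were 4.05 and 2.60, a mean 10-fold higher, with net signals of 11400 and 59600 in Ctrl. The SKOV3 values of this probe thus did not show the knockdown that the labels give. Its net signals in Cy3 were 662 and 472 in the labelled RNAs and 717 and 611 in Ctrl, ranges that overlapped. In Cy5 they were 8.44 and 13.2 in the labelled RNAs and 26.1 and 16.4 in Ctrl. The Cy5 signals lie below the offset of 50 added to every signal, and the Cy3 signals lie above it. Each ratio sets a Cy3 reading against a dim Cy5 reading, which limits what these ratios can show of a fall. The study selected the SKOV3 clones on their Hic-5 mRNA and protein, measurements that were not analysed here. On these arrays the directions below rest on the labels, and the modified RNAs are called the RNAs labelled as sh-S1 and sh-S2. Of 5 epithelial markers, KRT8, KRT18 and KRT19 were well above background on every SKOV3 array, EPCAM and CDH1 on 2 of the 4 channels of Ctrl and 2 of the 4 of the clones, and the ovarian marker PAX8 on all. In A2780s, KRT8, KRT18, EPCAM and PAX8 were well above background in both RNAs on both arrays, and CDH1 in none of these channels. In the labelled RNAs 3 of the 5 epithelial markers and 1 of 3 ovarian markers were lower by the rule used for the members, with log2 ratios down to -3.53 and -3.58. The epithelial markers that were lower are the keratins, while EPCAM and CDH1 read -0.10 and -0.03. By Western blot the study reported more EPCAM and E-cadherin, the product of CDH1, in these clones, and protein was not measured on the arrays. The summed level of the epithelial list was 38600 to 56100 on the Ctrl channels and 5940 to 8470 on the channels of the labelled RNAs, and that of the ovarian list was 11900 to 17400 and 1230 to 2050. For the fibroblast, leukocyte and endothelial lists these ranges overlapped, and their genes had log2 ratios of -0.14 to 0.16. The part of this shift in the results below was not tested.

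In SKOV3, ID2, ID3 and ID4 rose in the RNAs labelled as sh-S1 and sh-S2 and BAMBI fell. To be called, a gene had to change by 2-fold or more with a limma adjusted p no higher than 0.05. Of the 10 genes, 7 were well above background often enough to enter the test, and 3 were called higher and 1 lower. Over all 25090 probes tested, 3.01% were called higher, 4.21% lower and 7.22% in either direction. ID2 rose the most of the ID genes, BAMBI changed most of all members, and ID1 was not called.

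ID2, a partner of E proteins in many proliferating cells, was measured by both of its probes. With the probe A_23_P143143, the log2 ratios of labelled RNA over Ctrl were 1.71 and 2.16 for sh-S1 and 1.57 and 2.17 for sh-S2, with the clone in Cy5 and then in Cy3. All 4 arrays were high, and the ratios of the clones overlapped. The mean was 1.90 ± 0.05 (SD, n = 2), or 3.74-fold, with an SE of 0.09 and a limma adjusted p of 3.46e-05. The downstream probe A_32_P69368 read 1.98 and 2.55 for sh-S1 and 2.03 and 2.70 for sh-S2, a mean of 2.32 ± 0.07 (SD, n = 2) or 4.98-fold, with a limma adjusted p of 1.7e-05. Both probes called the gene higher, and the downstream probe gave the larger ratio on each of the 4 arrays.

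ID3, a close relative of ID1 and ID2 in sequence and regulation, had log2 ratios of 1.71 and 1.33 for sh-S1 and 2.05 and 1.23 for sh-S2. The ratio was higher with the clone in Cy5 than in Cy3, the reverse of ID2 and ID4. The mean was 1.58 ± 0.08 (SD, n = 2), or 2.99-fold, with an SE of 0.10 and a limma adjusted p of 8.15e-05.

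ID4, the family member best known from the nervous system and from ovarian and breast tumours, had log2 ratios of 0.71 and 1.56 for sh-S1 and 0.82 and 1.45 for sh-S2. Every array was above 0, and both arrays with the clone in Cy5 stayed short of 2-fold. The mean was 1.14 with an SE of 0.09 (n = 2), or 2.20-fold, and the limma adjusted p was 0.000258. This is the member nearest to the fold limit among those called, and its mean over the arrays that carried the clone in Cy5 was 0.77, below that limit.

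ID1, the family member most often used as a readout of BMP signalling, did not move as the other ID genes did. Its log2 ratios were 0.57 and -0.70 for sh-S1 and -0.11 and -1.17 for sh-S2. The sign differed between the dyes of sh-S1 and was below 0 on both arrays of sh-S2. The mean was -0.35 ± 0.41 (SD, n = 2), with a 95% interval of -0.71 to 0.00 and a limma adjusted p of 0.124. Between the clones, sh-S2 minus sh-S1 was -0.58 for ID1 (-0.68 in Cy5 and -0.48 in Cy3), a difference with 1 RNA on each side and no test. For the other members that entered, this distance ran from -0.30 at SMAD3 to 0.12 at ID3. It depended on the processing, with ID1 at -0.26, SMAD3 at -0.45 and BAMBI at -0.43 on the scanner software's processed signals, and ID1 at -0.37 and ID3 at 0.38 with median centring, so no member can be singled out by it.

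**Figure D1:**
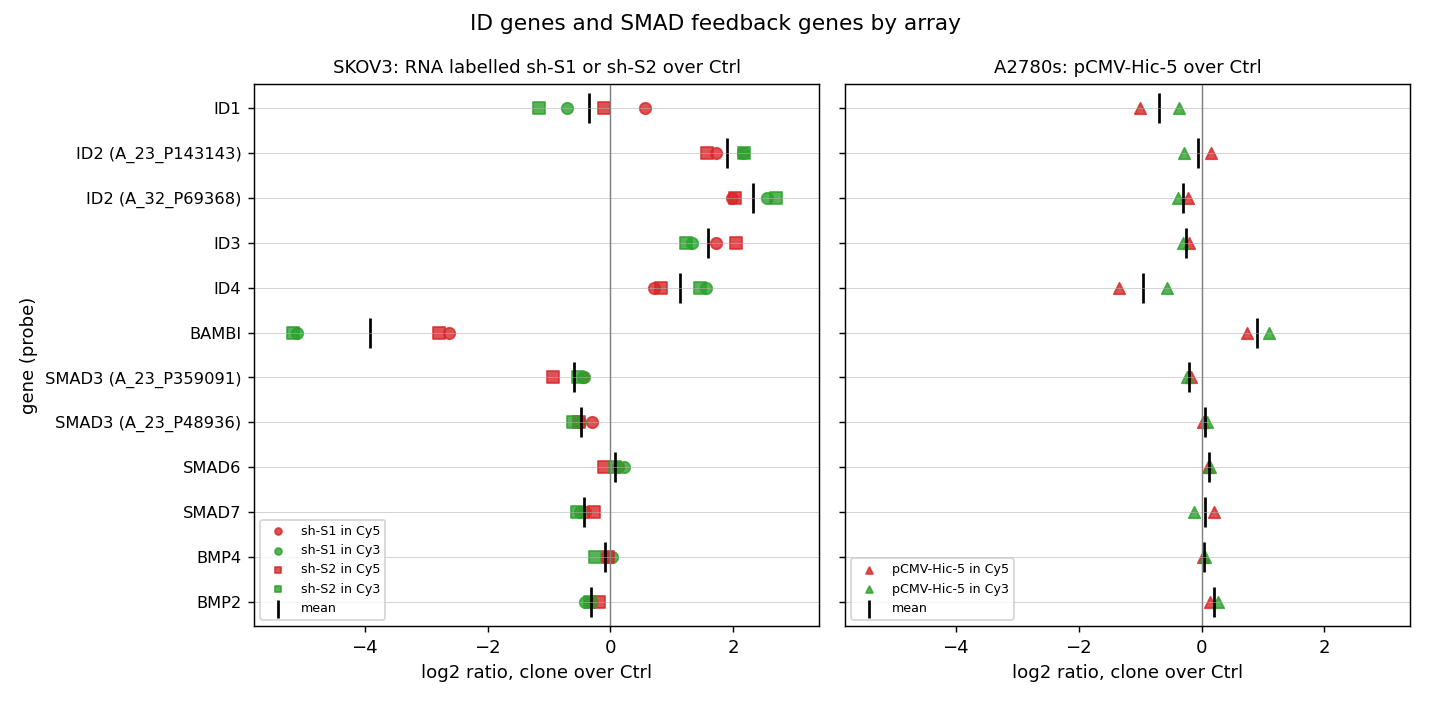
Log2 ratios of modified clone over Ctrl (x axis) for each of the 12 probes (y axis), with 1 symbol per array, coloured by the dye of the clone, and a black bar at the mean. In SKOV3 (left), the 4 symbols of ID2, ID3 and ID4 lie right of 0 and those of BAMBI between -5.17 and -2.62, while in A2780s (right) BAMBI lies right of 0 and ID1 and ID4 left of it.

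BAMBI, which resembles a TGF-beta family receptor without a kinase and dampens signalling, had the largest change of the members. Its net signal in Ctrl was 14100 and 10900 in Cy3 and 708 and 767 in Cy5, and in the labelled RNAs it was 218 and 226 in Cy3 and 12.8 and 13.2 in Cy5. The probe was well above background in all of these channels. The log2 ratios were -2.62 and -5.10 for sh-S1 and -2.79 and -5.17 for sh-S2, so the clones were within 0.17 of each other in a given dye and the dyes were far apart. The smaller fall came from the arrays that read the clone in the dim Cy5 channel, where the offset added to every signal exceeds the net signal of BAMBI. The mean was -3.92 ± 0.09 (SD, n = 2), 15.2-fold lower, with a limma adjusted p of 4.12e-06. Its size depended on the processing, from -2.71 over the arrays that carried the clone in Cy5 to -5.29 on the scanner software's processed signals.

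SMAD3, which carries TGF-beta and activin signals to the nucleus, was somewhat lower by both probes without reaching the fold limit. The probe A_23_P359091 read -0.44 and -0.43 for sh-S1 and -0.94 and -0.53 for sh-S2, a mean of -0.59 ± 0.21 (SD, n = 2) with a limma adjusted p of 0.00812. The probe A_23_P48936 has 10 spots on each array and averaged -0.30 and -0.49 for sh-S1 and -0.51 and -0.61 for sh-S2, a mean of -0.48 ± 0.11 (SD, n = 2) with a limma adjusted p of 0.0115. All array values of both probes were below 0, and none of these means reached 2-fold. The spots of the second probe also show the spread of repeated readings on an array, with an SD over spots of 0.09 to 0.38 in log2 ratio in SKOV3.

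SMAD7, the inhibitory SMAD that removes and blocks TGF-beta receptors, read -0.42 and -0.49 for sh-S1 and -0.27 and -0.55 for sh-S2. It was below 0 on all 4 arrays at a small size, with a mean of -0.43 ± 0.04 (SD, n = 2), 1.35-fold lower, and a limma adjusted p of 0.0139. Its net signals in the labelled RNAs in Cy5 were 16.9 and 34.7, also below the offset, and its mean was -0.71 on processed signals. The study reported more Smad7 protein in these clones by Western blot. Protein is a different measure from RNA and was not measured on the arrays. At an adjusted p no higher than 0.05 and any fold, 3 members were higher and 3 lower, where the lower ones are BAMBI, SMAD3 and SMAD7. By that rule 31.4% of all probes were called, 15.4% higher and 16% lower.

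SMAD6, BMP2 and BMP4 did not enter the SKOV3 test because they were too dim, and their values have no test. SMAD6, the inhibitory SMAD directed mainly at BMP signals, was well above background on 2 of 4 channels of the labelled RNAs and 2 of 4 of Ctrl, and its ratios ran from -0.11 to 0.22. BMP2, a ligand that induces ID genes in many cells, was well above background on 2 of 4 and 3 of 4 channels, with ratios of -0.42 to -0.18. BMP4, its close relative, was not well above background in the labelled RNAs on any array and was so on 2 of 4 Ctrl channels. Its ratios were -0.08 and 0.02 for sh-S1 and -0.04 and -0.25 for sh-S2, which give no direction.

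In A2780s, BAMBI was higher and ID1 and ID4 were lower in the pCMV-Hic-5 clone, while ID2 and ID3 stayed within 1.5-fold. Here a gene counted when its mean ratio reached 1.5-fold and both dye-swapped arrays had the same direction, a rule that is not a test. Of 9 members that were bright enough, 1 was past the rule higher and 2 lower. Over all 30529 probes, 3.26% were past it higher, 1.32% lower and 4.58% in either direction. BAMBI read 0.74 and 1.09 with the clone in Cy5 and then in Cy3, a mean of 0.91 or 1.88-fold higher. Its net signals were low in this line, at 115 and 74.8 in Ctrl and 333 and 199 in the clone, and with normexp fitted on all spots its mean was 0.46, which is short of 1.5-fold.

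Of the ID genes in A2780s, ID4 read -1.35 and -0.57, a mean of -0.96 or 1.94-fold lower. ID1 read -1.0 and -0.37, a mean of -0.69 or 1.61-fold lower. Each of these genes reached 1.5-fold where the clone was in Cy5 and not on the swapped array. ID2 read 0.15 and -0.28 with the probe A_23_P143143 and -0.22 and -0.39 with the downstream probe, so the first probe changed sign with the dye. ID3 read -0.20 and -0.31. Of the other members, SMAD3 lay at means of -0.21 and 0.05 by its 2 probes, SMAD7 at 0.05, SMAD6 at 0.12 and BMP2 at 0.20, and BMP4 was not well above background in the clone or in Ctrl.

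BAMBI was lower on all 4 SKOV3 arrays and higher on both A2780s arrays, and ID4 was higher on all 4 and lower on both. The cell lines, the kind of construct and the slides change together between these comparisons, so the difference was not tested and these cannot be told apart.

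The channel levels place these ratios on the scale of the RNAs themselves. A level is the log2 intensity of a probe in a channel after normalization of all channels to each other, and it is compared here for the same probe between RNAs. ID2 by the probe A_23_P143143 was lowest in the SKOV3 Ctrl, at 9.72 to 9.93 over 4 arrays. The RNA labelled sh-S1 had levels of 11.56 and 12.10 and that labelled sh-S2 of 11.45 and 11.90, which overlap. The A2780s Ctrl had 12.56 and 12.88 and the pCMV-Hic-5 clone 12.60 and 12.71, which overlap as well and lie above every SKOV3 channel.

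ID4 had its lowest levels in the SKOV3 Ctrl too, at 10.83 to 11.09. The RNAs labelled as sh-S1 and sh-S2, at 11.64 to 12.39 and 11.92 to 12.30, overlapped with the pCMV-Hic-5 clone at 11.97 to 12.49. The A2780s Ctrl stood above all of them at 13.06 and 13.32. For ID3, the SKOV3 Ctrl at 11.42 to 11.84 lay below every other RNA, and the remaining 4 RNAs, with means from 12.71 in pCMV-Hic-5 to 13.30 in sh-S2, overlapped with their neighbours in this order.

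BAMBI had the opposite order. It was highest in the SKOV3 Ctrl at 12.03 to 12.37, and lowest in the A2780s Ctrl at 6.57 and 6.99, with the pCMV-Hic-5 clone at 7.65 and 7.73. The RNAs labelled as sh-S1 and sh-S2 ran from 7.20 to 9.75 and from 6.86 to 9.39, so wide between the dyes that they cover the level of the pCMV-Hic-5 clone. The range of sh-S2 also overlaps with that of the A2780s Ctrl. ID1 had high intensity in every RNA, with means of 15.55 in the SKOV3 Ctrl, 15.28 in sh-S1, 15.12 in sh-S2, 15.41 in the A2780s Ctrl and 14.72 in pCMV-Hic-5. The first 4 of these overlap, and the pCMV-Hic-5 channels, at 14.58 and 14.87, lie just below the others.

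**Figure D2:**
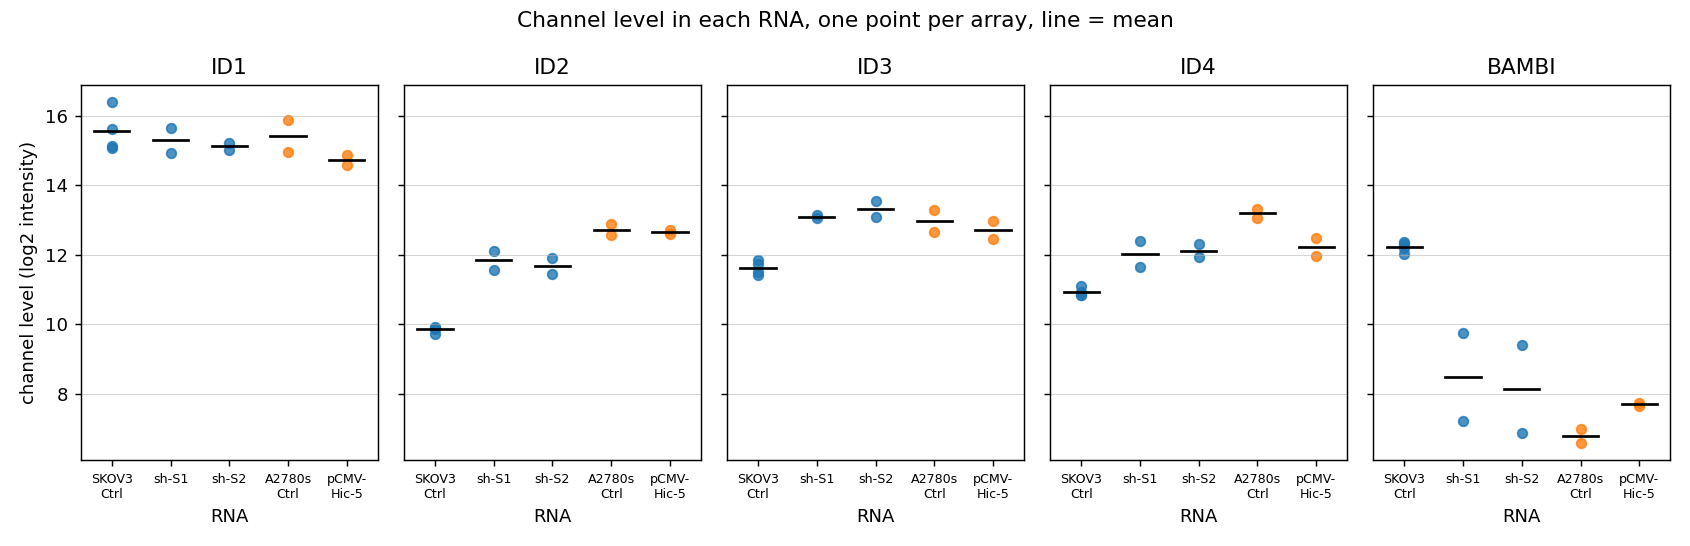
Channel level in log2 intensity (y axis) of the 4 ID genes and BAMBI in each RNA (x axis), with 1 point per array and a line at the mean, SKOV3 RNAs in blue and A2780s RNAs in orange. ID2, ID3 and ID4 are lowest in the SKOV3 Ctrl, where BAMBI is highest, and the BAMBI points of sh-S1 and sh-S2 are split by dye.

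The SMAD genes and the BMP ligands had flatter levels. SMAD7 ran from a mean of 9.44 in the SKOV3 Ctrl to 8.71 in the A2780s Ctrl, SMAD3 by its brighter probe from 9.58 in the SKOV3 Ctrl to 8.80 in sh-S2, and SMAD6 only from 7.46 to 7.74. BMP2 ran from 7.03 in sh-S1 to 7.67 in pCMV-Hic-5, and BMP4 lay at 6.32 to 6.47 in every RNA. The targeted gene TGFB1I1 stood at 7.78 to 8.55 in the SKOV3 Ctrl and at 8.05 to 8.67 in the RNAs labelled as sh-S1 and sh-S2. In the A2780s Ctrl it stood higher, at 11.84 and 13.72. By Western blot, the study reported strong Hic-5 protein in SKOV3 and rather low Hic-5 protein in A2780s. That order is the reverse, in a different measure from RNA. Levels between the lines come from different slides, so the slide and the cell line cannot be told apart.

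The other genes of the pathway came from a list of 59 that holds ligands, receptors, SMADs, antagonists, regulators, the E proteins that ID proteins bind, and further targets. In SKOV3, 51 of them entered the test, and 4 were called higher and 5 lower (4 and 8 with median centring in place of loess, 9 and 9 on processed signals). Over all probes tested, 3.01% were called higher and 4.21% lower. The median log2 ratio of the 51 genes was -0.06, against 0 over all probes. For the 7 members that entered, the median was -0.35, which is the value of ID1, a gene that was not called. By role, 3 of 9 ligands, 1 of 13 receptors, 0 of 5 signalling SMADs, 1 of 5 secreted antagonists, 1 of 8 intracellular regulators, 1 of 3 E proteins and 2 of 8 targets were called. At an unadjusted limma p of at most 0.05 and any fold, 3 of the 5 signalling SMADs and 31 of the 51 genes passed, against 41.1% of all probes. The genes are counted by their brightest probe and the share over all probes includes dimmer ones, so the counts and the share are not alike. The largest falls were those of TGFBI at -5.01, a secreted matrix protein named for its induction by TGF-beta, PMEPA1 at -3.48, a membrane protein that sequesters SMADs, TGFBR2 at -2.71, the type II receptor of TGF-beta, and INHBA at -2.37, a subunit of activin. Their limma adjusted p-values were 4.12e-06, 5.56e-06, 1.09e-05 and 1.48e-05. These are the brightest probes, and a dimmer probe of INHBA entered and read -0.40, short of 2-fold, which gives -1.38 when its probes are averaged. A dimmer probe of TGFBR2 did not enter and read -0.08, and a dimmer probe of PMEPA1 was called lower at -3.29.

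Of the genes that rose, BMP7, a ligand of the BMP group, read 2.15 ± 0.17 (SD, n = 2) with a limma adjusted p of 3.19e-05. This ratio comes from the brightest of its 3 probes. Of the other 2, which are dimmer, one entered and read 0.19, and the other did not enter and read 0.15. TCF4, an E protein and so a binding partner of the ID proteins, read 2.14 ± 0.24 (SD, n = 2) with a limma adjusted p of 5.04e-05, from its brightest probe. A dimmer probe of TCF4 also passed at 1.57, with the clones apart at 0.99 and 2.16, and another did not enter and read 0.35. The other E proteins were not called, with TCF3 at -0.94 and TCF12 at 0.33. SMAD9, which carries BMP signals, read 0.82 with a limma adjusted p of 0.00119, short of 2-fold, and SMAD1 and SMAD5 read 0.05 and -0.06.

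In A2780s, 54 of the 59 genes entered. The 1.5-fold rule passed 3.26% of all probes as higher and 1.32% as lower. Of the 54 genes, 0 were past it higher and 6 lower. These were CCN2 at -1.26, a matricellular target of TGF-beta, TGFB2 at -0.85 and TGFB3 at -0.68, which encode TGF-beta ligands, SOSTDC1 at -0.81, a secreted BMP antagonist, HEY1 at -0.80, a transcriptional repressor, and INHBA at -0.61. INHBA fell short of 1.5-fold with normexp fitted on all spots (-0.44) and with median centring (-0.58), which left 5 lower in either setting. The median of the list was -0.05, against -0.01 over all probes. These counts use the brightest probe of a gene. Dimmer probes were past the rule for ACVR2B, higher at 0.59, and for BMPR1A and TWSG1, lower at -0.79 and -0.61. In SKOV3, INHBA was also lower, while HEY1 was called higher at 1.46, with a limma adjusted p of 0.00219. BMP7 and TCF4 read -0.13 and 0.13 in A2780s.

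**Figure D3:**
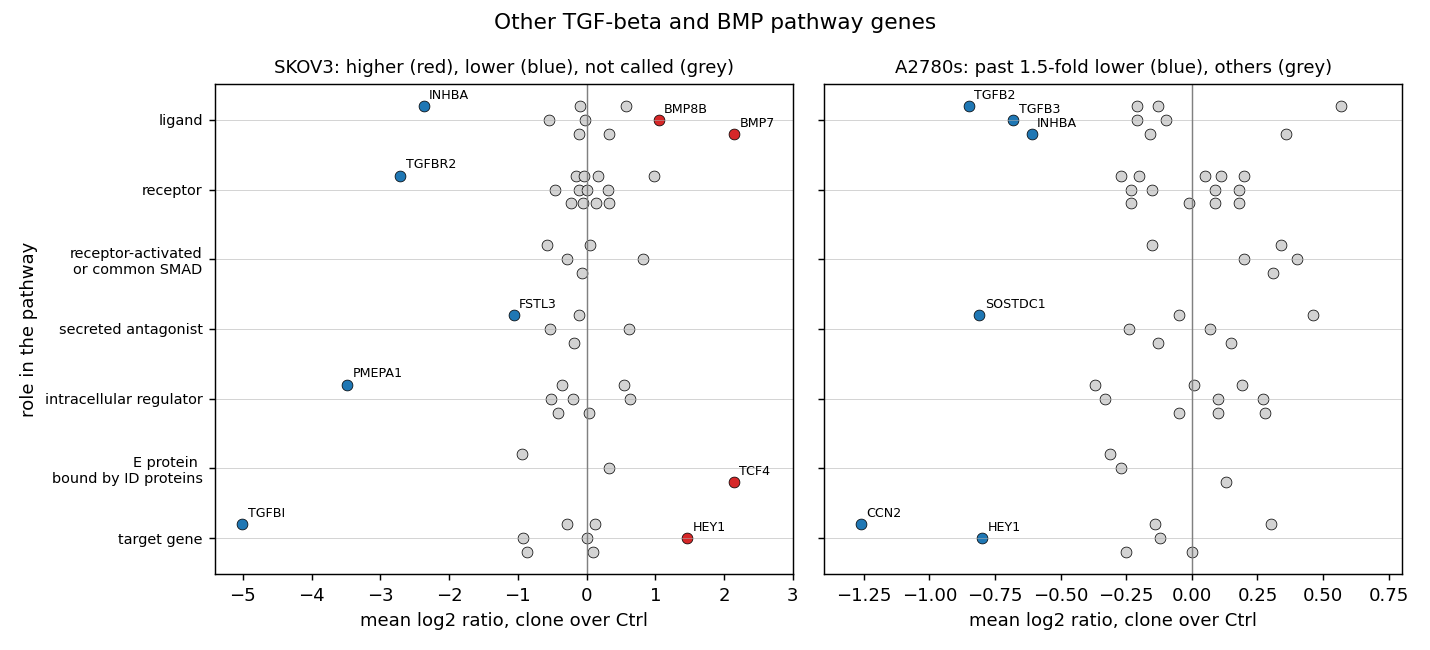
Mean log2 ratio of clone over Ctrl (x axis, with a different range in each panel) of the other pathway genes that entered, by role (y axis), in SKOV3 (left) and A2780s (right), 1 point per gene. Red points were called higher and blue points lower, with TGFBI at -5.01 as the farthest in SKOV3 and CCN2 at -1.26 in A2780s.

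The genes whose ratios lay nearest to those of BAMBI, the member with the largest change, were sought among 18067 named genes by the root mean square difference of the log2 ratios over the 6 arrays. RIPK4, a kinase of keratinocyte differentiation, was nearest at 0.27, followed by PERP, a desmosomal protein, at 0.33 and MT1E, a metallothionein, at 0.46. RIPK4 read -2.37, -4.98, -2.29 and -4.92 in SKOV3 and 0.76 and 1.32 in A2780s. PERP read -2.58, -4.88, -3.24 and -5.51, and then 0.39 and 0.66. All of these genes have the gap between dyes that BAMBI has in SKOV3, so the match includes the dye difference, and the SKOV3 arrays share 1 Ctrl RNA.

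**Figure D4:**
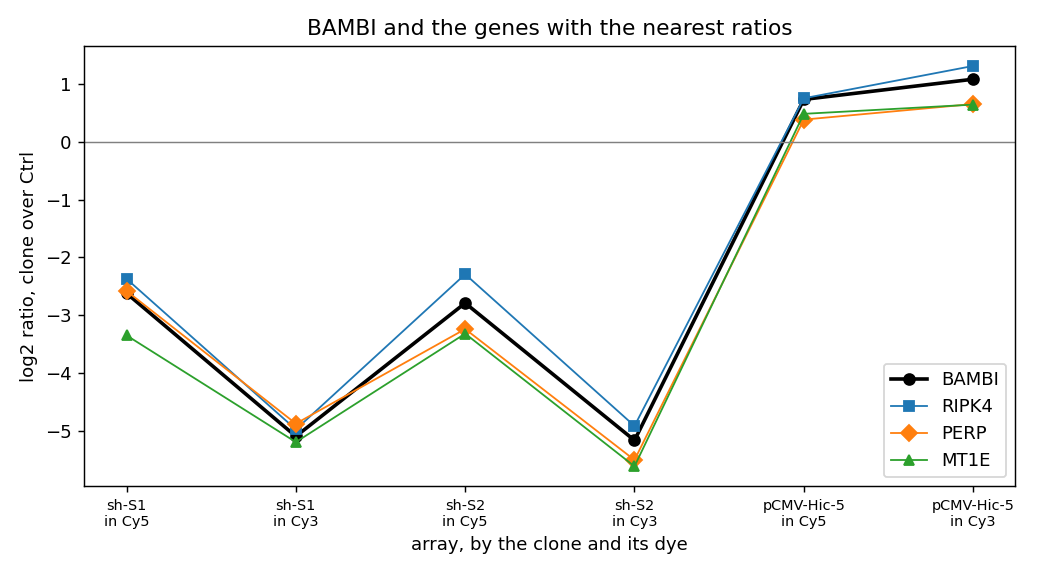
Log2 ratio of clone over Ctrl (y axis) on each of the 6 arrays (x axis, by clone and dye) for BAMBI in black and the 3 genes with the nearest ratios. RIPK4, PERP and MT1E run between -5.62 and -2.29 over the SKOV3 arrays and alternate with the dye as BAMBI does, and all 4 genes lie above 0 on both A2780s arrays.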

How the data were processed

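The authors deposited spot intensities of 6 two-colour arrays as Agilent Feature Extraction wrote them (version 8.5.1.1 per the labels' processing notes, 10.7.3.1 per the file headers), with processed intensities and log10 ratios (Cy5 over Cy3, the same way round on swapped arrays). The deposited log10 series values are those ratios and were only checked. From mean intensity and local background, limma 3.58.1 in R 4.3.3 corrected background by normexp (offset 50, parameters fitted without spots flagged for background) and normalized ratios by loess. On 1 A2780s array 39 spots with a local background over 1000 were left out. Control and outlier spots were dropped, spots of a probe averaged, and log2 ratios expressed as clone over Ctrl. Probes entered when well above background in Ctrl on all arrays of the line or on both arrays of a clone. SKOV3 clone means were tested against 0 with lmFit and eBayes and Benjamini-Hochberg adjustment, which leaves out the spread of the single Ctrl RNA. The brightest probe stands for a gene in counts. Channel levels are log2 after loess and Aquantile. Groups came from the labels. Nothing says that the clones' RNAs came from separate cultures, so p-values do not cover a spread between cultures. They rest on the spread between these 2 RNAs, drawn by eBayes toward that of all probes (5.37 prior degrees of freedom). The gap between dyes is averaged out before the test and is not in them. The methods give fold and p limits but not the normalization or test. The number of arrays and the signal over background limit precision. Members and lists were chosen with earlier results of these data known. Named were all members, up to 6 called pathway genes per line with the largest mean and the 3 genes nearest to the member that changed most. Other pathway genes were named after their values were seen. Both calling rules were first tested on simulated data. Alternatives were processed signals, normexp on all spots, median centring, no filter, single dyes, all probes, a stricter fold rule and leaving out a clone. The 4 SKOV3 arrays share 1 slide and the A2780s arrays another. Coordinates of probes are those of the files.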

Additional observations from a re-analysis of the deposited data

How the results depend on the processing

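In SKOV3, 4 members (3 higher, 1 lower) were called with normexp on all spots, without a filter, with all probes of a gene averaged and on arrays with the clone in Cy3 alone. On the processed signals of Feature Extraction 2 members were lower, since SMAD3 reached -1.18 there. With median centring and with the clone in Cy5 alone 3 members were called (2 higher), since ID4 read 0.94 and 0.77, short of 2-fold. Leaving out sh-S1 or sh-S2, which gives values with no test, left 4 members and 10 pathway genes past 2-fold in each case. Other pathway genes called in SKOV3 were 18 (9 higher, 9 lower) on processed signals, and 8 were lower with median centring. Over all probes, the processed signals gave 1979 higher and 2372 lower, against 755 and 1057. In A2780s, 1 member was past the rule with the clone in Cy3 alone and 1 when each array had to reach 1.5-fold, with 0 lower in both, and 0 members were higher with normexp fitted on all spots, where BAMBI read 0.46, against 1.58 on processed signals. Other pathway genes past the rule in A2780s were 11 with Cy5 alone, 3 with Cy3 alone (3 lower) and 3 under the rule on each array (3 lower), and those higher were 1 on processed signals, 1 with median centring and 3 with Cy5 alone. No called value changed sign, while ID1 in SKOV3, which was not called, read 0.23 with the clone in Cy5 alone and -0.93 in Cy3 alone. At any fold, ID1 was lower at a limma adjusted p of 0.00327 in Cy3 alone. With median centring it was lower at -0.48 and a limma adjusted p of 0.0241. The cause of these shifts was not tested. No paired analysis was possible because the arrays numbered 1 and 2 in a group are dye swaps of the same RNAs. The dim Cy5 channel of the SKOV3 arrays limits what can be said of the size of change of BAMBI, SMAD3 and SMAD7. It also limits what can be said of TGFB1I1 and of SMAD6, BMP2 and BMP4.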
